A study of Mus musculus with 10 samples.

Results

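The expression of 8 genes known from B lymphocytes, Ighm, Cd79a, Cd79b, Ms4a1, Fcrl1, Cd22, Blk and Blnk, was followed in RNA of sorted mouse microglia. They were taken by symbol, 8 of the 53697 genes in the deposited tables, and were selected on their estimated counts in the WT and DKO libraries, with earlier results of these data known, so their levels and fold changes are given as a description. Microglia, the resident macrophages of the brain, came from female mice in 10 libraries, 5 from wild-type (WT) animals, named as C57BL/6J or Rosa26Stop-YFP, and 5 from Bhlhe40–/–Bhlhe41–/– (double knockout, DKO) animals, which lack a pair of related transcriptional repressors in every cell. All mice were on a C57BL/6 background and untreated. The paper describes them as relatively young and of more than 1 age, and the ages were not assigned to libraries. Cells were sorted as viable, CD45.2+ and CD11b+ and free of Ly6C, Ly6G, MHCII and CD38. Mouse B cells carry MHCII and CD38 and mostly lack CD11b, so this gate selects against them. The labels call the libraries biological replicates but do not say that each is 1 mouse, so differences are read against the spread between libraries. Each library bears its genotype and the number from its label below, and nothing says what equal numbers share.

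A B cell carries an antigen receptor made of a membrane immunoglobulin and a signalling dimer of CD79A and CD79B. Ighm encodes the constant part of the mu heavy chain of that immunoglobulin, which pairs with a kappa or lambda light chain, and the variable part comes from a V, a D and a J segment joined in developing lymphocytes. Ms4a1 encodes CD20, Cd22 a sialic acid-binding inhibitory receptor, Fcrl1 a receptor of the Fc receptor-like family, Blk a Src family kinase and Blnk an adaptor that links the receptor to downstream enzymes. Several of these genes are also used by myeloid cells, and a gene of the list need not mark a B cell by itself.

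Ighm ends in 1 of 2 ways, which makes its transcript either the secreted or the membrane form. Both forms are shown at the point where they part, since the length of the Ighm transcript is a measure reported here. Each line gives the last 30 bases of the exon part they share in lower case and the first 30 bases of their own in capitals, in transcript direction, from GENCODE release M21 on GRCm38. Ighm lies on the minus strand of chromosome 12 at 113418558 to 113422730. The capitals lie at chr12:113420899-113420928 for the secreted form, where the fourth exon reads on, and at chr12:113419039-113419068 for the membrane form, the start of the fifth exon, and both are coding.
Ighm-201 (secreted): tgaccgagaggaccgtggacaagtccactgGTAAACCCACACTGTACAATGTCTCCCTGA
Ighm-202 (membrane): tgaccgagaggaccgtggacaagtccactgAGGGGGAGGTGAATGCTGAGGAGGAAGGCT

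The 10 libraries held 22483284 to 26109349 rounded counts each. The WT libraries ran from 23382114 to 25871082 and the DKO libraries from 22483284 to 26109349, so depth was alike in both genotypes and a count of 3, the limit that a count of 0 allows, equals 0.108 to 0.134 CPM, counts scaled to library size by TMM, depending on the library. Libraries WT 1 and WT 5 stood apart from the other WT libraries in some genes, Spi1, a myeloid and B cell transcription factor, having 1262 and 1190 counts there against 8957 to 10055 in the other WT libraries. Of the targeted genes, Bhlhe40 had 4 to 28 counts in WT and 1 to 8 counts in DKO libraries. Bhlhe41 was not lower in DKO libraries, with 35.9 ± 6.67 CPM in WT and 50.9 ± 8.46 CPM in DKO (SD, n = 5 each), but the weighted length of its transcript ran from 1851 to 2719 bases in DKO against 5878 to 6133 bases in WT libraries. The microglial identity of the sort was plain, since all 12 microglia markers were tested and their summed counts lay at 2224560 to 2528697 in WT and 1937044 to 2463361 in DKO libraries.

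The 8 genes fell into 2 classes by level, one read well and one close to nothing. Ighm, Fcrl1, Blnk, Cd79b and Cd22 passed the count filter, whereas Cd79a, Ms4a1 and Blk did not. Per kilobase of effective length, which allows genes to be compared, Ighm stood highest in WT libraries at 361 ± 77.0 CPM per kilobase (SD, n = 5). Blnk followed at 112 ± 24.2, Fcrl1 at 98.0 ± 6.65, Cd79b at 68.3 ± 21.01 and Cd22 at 5.03 ± 3.15. Blnk and Fcrl1 did not differ beyond their spread in WT, while Cd79b lay below Fcrl1 in every WT library, at 0.472 to 0.944 of its level. In DKO libraries Ighm was again highest at 448 ± 82.3 CPM per kilobase, and Fcrl1 came next at 194 ± 14.0, above Blnk at 105 ± 13.8 and Cd79b at 90.0 ± 30.2. Cd22 was the lowest of these 5 at 15.1 ± 7.78 CPM per kilobase in DKO.

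**Figure D1:**
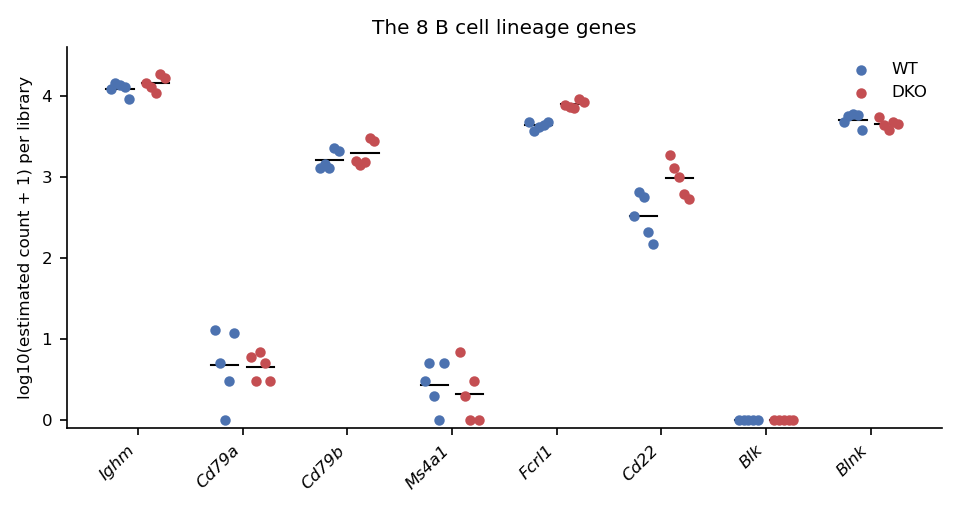
Estimated count of each of the 8 genes per library, as log10 of the count with 1 added, for 5 WT (blue) and 5 DKO (red) libraries, with black bars at the mean of the plotted values. Ighm, Cd79b, Fcrl1, Cd22 and Blnk lie above 100 counts in every library, Cd79a and Ms4a1 lie at 12 counts or below, and Blk lies at 0.

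Ighm, the mu heavy chain constant gene, was read in every library. Its counts were 12111, 14490, 13390, 12869 and 9013 in WT 1 to WT 5, and 14224, 12780, 10750, 18753 and 16628 in DKO 1 to DKO 5. The genotypes overlapped, the lowest library being WT 5 and the 2 highest being DKO 4 and DKO 5. Scaled to depth, Ighm averaged 490 ± 105 CPM in WT libraries and 622 ± 119 in DKO libraries (SD, n = 5 each), a log2 fold change of 0.34 ± 0.17 (SE). Without WT 1 and WT 5 together this difference was 0.16 on the log2 scale, and it was 0.05 within the libraries numbered 1 to 3 and 0.76 within those numbered 4 and 5. In bulk RNA, a change in the number of cells that make a transcript and a change in the transcript per cell cannot be told apart.

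Cd79b, the signalling chain of the receptor, had 1266, 1444, 1264, 2284 and 2084 counts in WT 1 to WT 5. In DKO 1 to DKO 5 it had 1571, 1408, 1503, 2981 and 2759 counts. The genotypes overlapped, and in both of them the libraries numbered 4 and 5 were higher than those numbered 1 to 3. The means were 65.8 ± 20.2 CPM in WT and 86.6 ± 29.98 CPM in DKO (SD, n = 5 each), a log2 fold change of 0.40 ± 0.25 (SE).

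Fcrl1, the Fc receptor-like gene, was the member with the narrowest spread between libraries. It had 4724, 3648, 4086, 4339 and 4770 counts in WT 1 to WT 5, and 7620, 7228, 7109, 9048 and 8393 counts in DKO 1 to DKO 5. Every DKO library lay above every WT library, so the genotypes did not overlap. Fcrl1 averaged 169 ± 10.7 CPM in WT libraries and 336 ± 26.3 in DKO libraries (SD, n = 5 each), a log2 fold change of 0.99 ± 0.08 (SE). In the libraries numbered 1 to 3 it averaged 162 CPM in WT and 318 CPM in DKO, and in those numbered 4 and 5 it averaged 179 and 363 CPM.

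Cd22, the sialic acid-binding receptor, varied most among the members that were read well. Its counts were 331, 649, 561, 208 and 146 in WT 1 to WT 5, and 1859, 1298, 1000, 609 and 533 in DKO 1 to DKO 5. DKO was the higher genotype on average, but DKO 4 and DKO 5 lay below WT 2 in counts. Within each numbered set the genotypes did not overlap. Numbers 1 to 3 lay at 11.9 to 27.5 CPM in WT and 42.9 to 79.4 CPM in DKO. Numbers 4 and 5 lay at 5.49 to 8.55 CPM in WT and 22.7 to 24.8 CPM in DKO. Cd22 averaged 15.1 ± 9.36 CPM in WT libraries and 45.5 ± 23.8 in DKO libraries (SD, n = 5 each), a log2 fold change of 1.59 ± 0.47 (SE). An antisense gene that overlaps it, Gm29439, had at most 6.65 counts in a library, and the kit does not mark strand.

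Blnk, the adaptor, had 4790, 5612, 5862, 5718 and 3756 counts in WT 1 to WT 5, and 5393, 4373, 3747, 4761 and 4520 counts in DKO 1 to DKO 5. The genotypes overlapped over nearly all of their range. Blnk averaged 204 ± 44.2 CPM in WT libraries and 194 ± 24.7 in DKO libraries (SD, n = 5 each), a log2 fold change of -0.07 ± 0.15 (SE).

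Of the 5 members tested, 1, Fcrl1, passed the adjusted threshold of 0.05 of edgeR's fit over all 13916 genes, where 6.19% of genes passed, 4.34% as higher and 1.85% as lower in DKO. The same gene was the 1 of 5 whose CPM did not overlap between genotypes, against 7.62% of all genes tested, 4.33% as higher and 3.29% as lower in DKO. Nothing is read from these shares, since the genes were listed with this contrast known. The median log2 fold change of the 5 was 0.40, beside -0.01 over all genes tested.

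Cd79a, the partner of Cd79b in the receptor dimer, was nearly absent. Its counts were 12, 4, 0, 2 and 11 in WT 1 to WT 5, and 5, 2, 6, 4 and 2 in DKO 1 to DKO 5. Its 48 counts over all libraries compare with 18564 for Cd79b, and per kilobase Cd79b was read 469 times as strongly as Cd79a over the 10 libraries together. WT 1, with 12 counts of Cd79a, had 1266 of Cd79b, whereas WT 5, with 11 counts of Cd79a, had 2084. Nothing is read from so few counts.

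Ms4a1, which encodes CD20, had 2, 4, 1, 0 and 4 counts in WT 1 to WT 5, and 6, 1, 0, 2 and 0 counts in DKO 1 to DKO 5. An antisense gene, 4930526L06Rik, overlaps it and held 5 to 19 counts. Blk, the Src family kinase, was listed at 0 in all 10 libraries, which allows up to 3 counts in each, for counting error only. For Cd79a and Ms4a1 no difference between genotypes was detectable at this depth.

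Beyond the 8 members, immunoglobulin genes were read mainly at the mu and delta end of the heavy chain locus. Of 13 immunoglobulin genes listed, 12 constant genes and the joining chain gene Jchain, 9 were listed at 0 in every library, namely Igkc, Iglc1, Iglc2, Iglc3, Ighg1, Ighg2c, Ighg3, Igha and Ighe. The light chain genes, whose products pair with a mu chain in a B cell, were thus listed at 0 beside 9013 to 18753 counts of Ighm. As many as 4697 protein-coding genes were listed at 0 in every library, and how the authors' tool assigned reads to such genes is not known here. Ighd, the delta constant gene that lies next to Ighm, had 147 to 499 counts in WT and 333 to 649 in DKO libraries, or 1.63% to 3.73% and 2.92% to 3.85% of the Ighm count. Jchain had 10 to 53 counts and Ighg2b 1 to 16. None of the 4 tested genes of the list passed in edgeR's quasi-likelihood test, none had an unadjusted p under 0.05, and DESeq2 and limma voom called none.

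The segments that form the variable part of an immunoglobulin were scarce. All 222 immunoglobulin V genes together held 0 to 9 counts per library and 33 counts in all, at most 0.0837% of the Ighm count in any library. The 14 heavy chain D genes and the 10 light chain J genes were listed at 0. The 4 heavy chain J genes held 84, 146, 132, 97 and 76 counts in WT 1 to WT 5, and 186, 120, 120, 217 and 165 in DKO 1 to DKO 5. They ran at 0.694% to 1.01% of the Ighm count in WT and 0.939% to 1.31% in DKO, so the genotypes overlapped, and Ighj1 alone held 1139 of the 1343 counts. Ighj1, the first of these 4 genes in the direction of transcription, lies at chr12:113429781-113429833 on the minus strand, upstream of Ighm.

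Several genes that define B cells but are not among the 8 were scarce as well, whereas others of the same lists were read strongly. At most 20 counts in every library were found for 7 of the 14 genes of the B cell surface, among them Cd79a and Ms4a1, and for 5 of the 15 B cell transcription factors. Cd37, a tetraspanin of many leukocytes, had 9153 to 12745 counts, and Xbp1, a factor of the secretory pathway, 2435 to 13093. Pax5, the factor that fixes B cell identity, and Pou2af1, a B cell coactivator, were listed at 0 in every library, as were Rag1 and Dntt, which act in the joining of segments. Ebf1, an early B cell factor, had 1 to 9 counts, Spib 1 to 6 and Cr2, a complement receptor, 1 to 11. The low-affinity IgE receptor gene Fcer2a had 4 to 32 counts. The early B cell list summed to 9 to 20 counts in WT and 5 to 15 in DKO libraries. Rag2 was its 1 tested gene, with an adjusted p of 0.946 in edgeR and an unadjusted p above 0.05, and DESeq2 and limma voom did not call it.

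**Figure D2:**
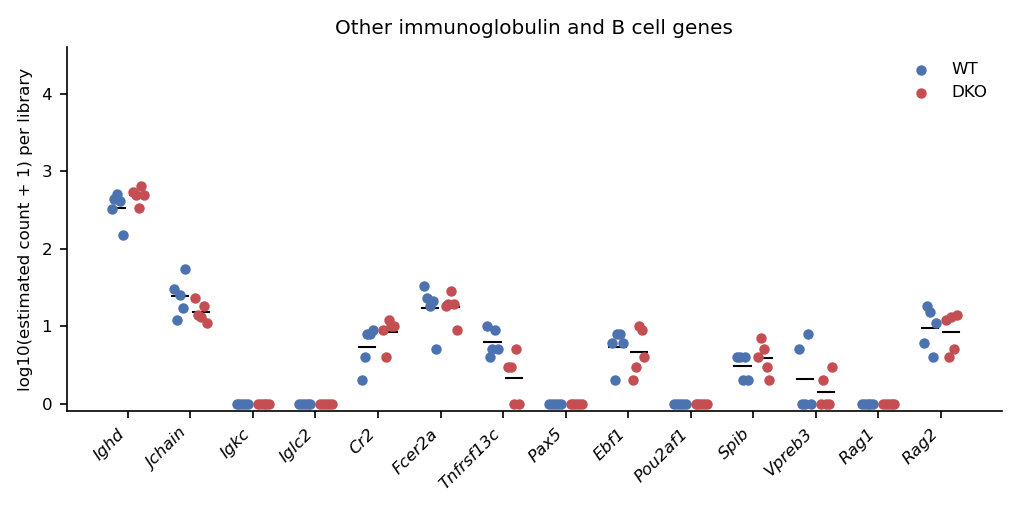
Estimated counts of 14 further immunoglobulin and B cell genes per library, as log10 of the count with 1 added, for 5 WT (blue) and 5 DKO (red) libraries with black bars at the mean of the plotted values. Ighd is the highest at 147 to 649 counts, and Igkc, Iglc2, Pax5, Pou2af1 and Rag1 lie at 0 in every library.

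Cd72 and Tnfrsf13b, also of the B cell surface, changed with genotype in edgeR's fit besides Fcrl1. Of 14 genes on that list, 7 were tested, 2 were higher and 1 was lower in DKO, beside 4.34% and 1.85% of all genes tested. DESeq2 and limma voom each called 4, Cd22 being the fourth. The median log2 fold change was 0.40 beside -0.01 over all genes. That median is the value of Cd79b, and Cd79b, Fcrl1 and Cd22 are members listed with this contrast known. It is therefore not a separate result. Cd72, an inhibitory receptor of B cells and macrophages, had 154 to 226 counts in WT and 496 to 635 in DKO libraries, with no overlap. It rose from 7.80 ± 0.989 CPM in WT to 23.9 ± 2.45 in DKO libraries (SD, n = 5 each; log2 fold change 1.61 ± 0.12 SE, adjusted p = 3.5e-05). Tnfrsf13b, the receptor TACI, fell from 214 ± 40.1 CPM in WT to 143 ± 25.5 in DKO libraries (log2 fold change -0.58 ± 0.15 SE, edgeR adjusted p = 0.0432), again with no overlap. Its call was lost in 9 of 23 alternative settings.

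The enzymes and adaptors around Blnk were read strongly and showed no called change. Of the 14 genes of receptor signalling, 13 were tested and edgeR called 0, with 3 at an unadjusted p under 0.05, and DESeq2 and limma voom called 0 as well. Bank1, Dapp1 and Btk, which averaged lower in DKO, passed under some other scalings, among them upper-quartile or no factors. The list's median log2 fold change was 0.10, beside -0.01 over all genes. The most highly read were Lyn, a Src family kinase, at 992 ± 37.9 CPM in WT and 1067 ± 45.6 in DKO (SD, n = 5 each; edgeR adjusted p = 0.374), and Inpp5d, a lipid phosphatase, at 804 ± 188 and 880 ± 152 CPM (adjusted p = 0.671). Among 15 transcription factors of B cells, 10 were tested and edgeR called 1, with 3 at an unadjusted p under 0.05. DESeq2 and limma voom each called 2. Over all genes tested, edgeR called 6.19%. Irf4 fell from 6.04 ± 1.12 CPM in WT to 2.08 ± 0.589 in DKO libraries (log2 fold change -1.53 ± 0.22 SE, edgeR adjusted p = 0.0020). Tcf3 rose from 5.75 ± 7.25 CPM in WT to 25.6 ± 12.8 in DKO libraries (log2 fold change 2.16 ± 0.66 SE, edgeR adjusted p = 0.0778). It passed with DESeq2 and limma voom (adjusted p = 0.0282 and 0.0211).

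**Figure D3:**
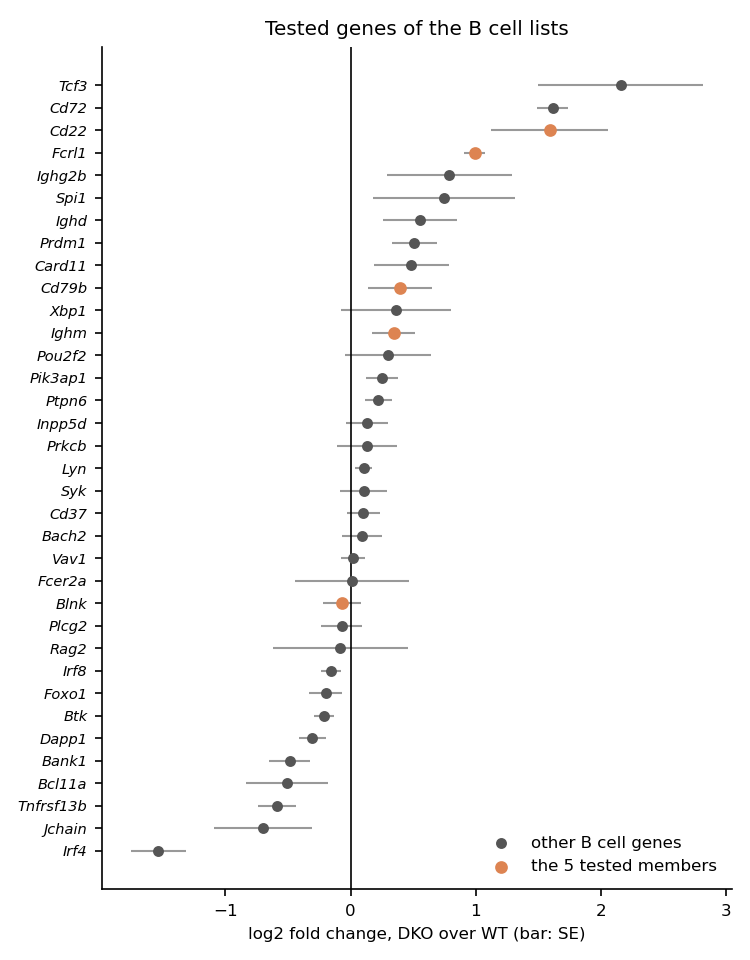
Log2 fold change of DKO over WT with its standard error for the 35 tested genes of the B cell lists, with the 5 tested members in orange and the other genes in grey. Members spread from -0.07 (Blnk) to 1.59 (Cd22), and 4 of the 35 genes, Fcrl1, Cd72, Tnfrsf13b and Irf4, passed the adjusted threshold.

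The length of the transcripts behind the counts is a measure that the choice of the genes did not use. For Ighm the abundance-weighted transcript length was 1659, 1662, 1658, 1652 and 1646 bases in WT 1 to WT 5, and 1671, 1668, 1669, 1666 and 1665 bases in DKO 1 to DKO 5. Every DKO library had the longer value. The means were 1656 ± 6.31 and 1668 ± 2.54 bases (SD, n = 5 each), 12.4 bases longer in DKO, with a two-sided exact permutation p of 0.00794, the smallest that 5 against 5 libraries allow, and an adjusted p of 0.0397 over the 5 members tested. Lengths did not overlap between genotypes in 1.41% of the 9618 genes with at least 10 counts in every library and a varying length. Such non-overlap equals the unadjusted exact permutation p of 0.00794, so a part of these genes would part by chance alone. The adjusted p of 0.0397 covers the 5 members and not the 9618 genes.

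Ighm has 2 transcripts in release M21, the membrane form of 1698 bases and the secreted form of 1493 bases, which are the sequences shown above. If the authors' gene models are these, a mean length between them gives the share of the membrane form. That share was 81.2%, 82.4%, 80.4%, 77.7% and 74.7% in WT 1 to WT 5, and 87.1%, 85.4%, 85.9%, 84.3% and 84.0% in DKO 1 to DKO 5. The membrane form thus made up most of Ighm in every library, and its share was 6.04 percentage points higher in DKO, at 79.3% ± 3.08 in WT and 85.3% ± 1.24 in DKO (SD, n = 5 each). Leaving out any 1 DKO library kept the genotypes apart at a difference of 11.5 to 13.1 bases, with an exact permutation adjusted p of 0.0529 to 0.0794. Leaving out any 1 WT library, with the same 126 relabellings of 4 against 5 libraries, gave an adjusted p of 0.0397 each time. Without WT 5, the library with the lowest share and the fewest Ighm counts, the difference was 10.1 bases at an exact permutation adjusted p of 0.0397. Effective length in place of length gave an exact permutation adjusted p of 0.0794. Per the paper, RNA integrity of the mouse samples was not assessed because RNA was scarce, and its part in these lengths was not tested.

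No other member passed the same test. Cd79b transcripts averaged 1293 ± 18.3 bases in WT and 1273 ± 9.74 in DKO (SD, n = 5 each; exact permutation adjusted p = 0.0992). Read as a share of its longer transcript, Cd79b-201 of 1431 against 1195 bases, this was 41.6% ± 7.77 in WT and 33.1% ± 4.13 in DKO, with WT 1 highest at 54.7%. Adjusted p in the exact permutation test was 0.106 for Fcrl1, 0.704 for Blnk and 0.937 for Cd22.

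**Figure D4:**
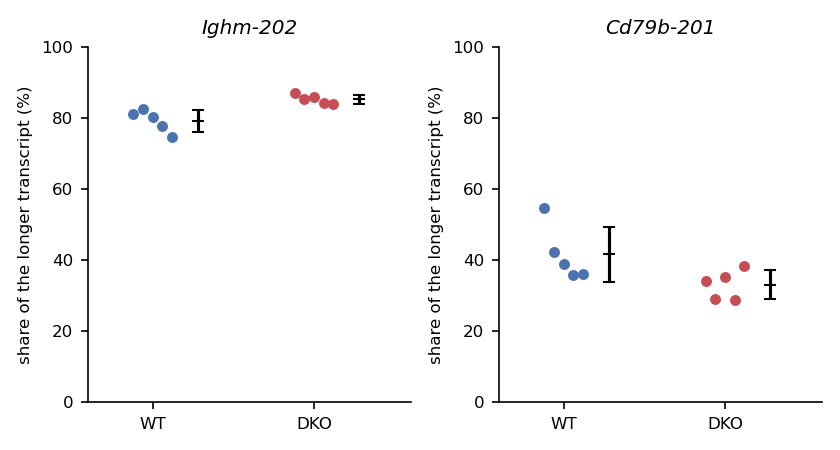
Share of the longer transcript in percent, computed from the weighted transcript length, for Ighm-202 (left, the membrane form) and Cd79b-201 (right), with 1 point per library and the mean with SD beside the points. For Ighm, DKO libraries lie at 84.0% to 87.1% and WT libraries at 74.7% to 82.4%, while for Cd79b the genotypes overlap.

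Whether the members move together was examined across the 10 libraries. The libraries numbered 4 and 5 differed from those numbered 1 to 3 in opposite directions for different members. Cd79b was higher in numbers 4 and 5, by 1.65 times in WT and 1.84 times in DKO, with no overlap in either genotype. Cd22 was lower in numbers 4 and 5, at 0.342 of the level of numbers 1 to 3 in WT and 0.395 in DKO, also with no overlap. Fcrl1 moved little between the sets, at 1.10 times in WT and 1.14 times in DKO. Ighm went one way in WT, 0.824 times, and the other in DKO, 1.35 times, and Blnk stayed at 0.879 and 0.988 times. These sets hold 3 and 2 libraries per genotype, and the values are a description.

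**Figure D5:**
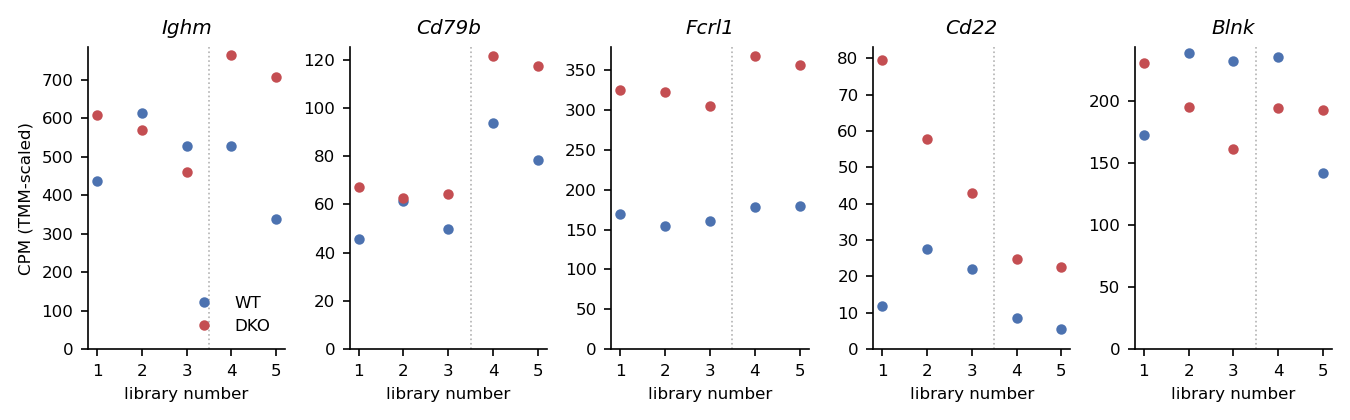
CPM of the 5 members that passed the count filter in each library, by library number, for WT (blue) and DKO (red), with a dotted line between numbers 3 and 4. Fcrl1 parts the genotypes at every number, Cd79b is highest at numbers 4 and 5, and Cd22 is lowest there.

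Pairs of Ighm, Cd79b and Fcrl1 with each other and with Cd22 and Blnk made 9 correlations of log2 CPM. Of the 5 pairs without Fcrl1, Ighm with Blnk had the highest value, with a Pearson r of 0.62 (permutation p = 0.0547, adjusted over 9 pairs 0.192) and a Spearman rho of 0.47 (permutation p = 0.180, adjusted 0.323). Without WT 5 and DKO 4, the libraries farthest from the median of Ighm, r was 0.49, and within the 6 libraries numbered 1 to 3 it was 0.84. Ighm with Cd79b, the chains of 1 receptor, gave r = 0.49 (permutation p = 0.145, adjusted 0.218) and rho = 0.49 (permutation p = 0.154, adjusted 0.323), with 0.65 without those libraries and 0.59 within numbers 1 to 3. Ighm with Cd22 gave r = 0.54 (permutation p = 0.107, adjusted 0.192) and rho = 0.48 (permutation p = 0.169, adjusted 0.323), 0.30 without those libraries and 0.60 within numbers 1 to 3. Cd79b with Cd22 gave r = -0.14 (permutation p = 0.696, adjusted 0.807) and rho = -0.08 (permutation p = 0.837, adjusted 0.837), but 0.92 within numbers 1 to 3. In those numbers both genes parted the genotypes, Cd79b at 45.6 to 61.3 CPM in WT and 62.8 to 67.1 CPM in DKO. Cd22 lay at 11.9 to 27.5 CPM in WT and 42.9 to 79.4 CPM in DKO there, so 0.92 is not read as a relation between genes. Cd79b with Blnk gave r = -0.03 (permutation p = 0.928, adjusted 0.928) and rho = -0.15 (permutation p = 0.683, adjusted 0.769). None of these 5 pairs passed after adjustment over all 9, which does not show that the genes are unrelated. With genotype means removed, r was 0.80 for Ighm with Blnk, 0.35 for Ighm with Cd79b, 0.26 for Ighm with Cd22 and -0.72 for Cd79b with Cd22. WT 1 and WT 5, which stood apart in Spi1, were the lowest WT libraries in both Ighm and Blnk. Ighm lay at 436 and 339 CPM there, against 529 to 615 CPM in the other WT libraries. Blnk lay at 173 and 141 CPM, against 232 to 238 CPM. Ighm with Cd79b and Ighm with Cd22 had opposite signs in the 2 genotypes, whose 5 libraries each are too few for a correlation of their own.

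Fcrl1 splits the libraries into 2 clusters, the genotypes, of 5 libraries each, so its 4 correlations over the pooled libraries are not read as a relation between genes. With genotype means removed, r of Fcrl1 was 0.79 with Cd79b, 0.14 with Ighm, -0.22 with Blnk and -0.83 with Cd22. These values still hold the difference between the numbered sets, which parted Cd79b, Fcrl1 and Cd22 without overlap in both genotypes. Fcrl1 with Ighm and Fcrl1 with Blnk had opposite signs in the 2 genotypes. Their low values with genotype means removed are thus not read as no relation within a genotype. Cd79a, Ms4a1 and Blk had too few counts to be correlated. DKO 4, the library with the highest counts of Ighm, Cd79b and Fcrl1, had 4 counts of Cd79a and 2 of Ms4a1, and the library lowest in Ighm, WT 5, had 11 and 4.

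Among 7982 tested genes whose mean log2 CPM reached 3, those whose log2 CPM over the 10 libraries was most like that of Ighm were Tcn2, Ppt1, Rpn2, Ptgs1 and Anapc5, with r of 0.98, 0.98, 0.97, 0.96 and 0.95. Ighd, its neighbour in the locus, ranked 22 with r = 0.92, while Blnk ranked 1499, Fcrl1 1917, Cd22 1998 and Cd79b 2232. Most like Cd79b were Fcgrt, Blvrb, Camk1, Fgf13 and Ergic3, with r of 0.98, 0.98, 0.97, 0.97 and 0.96. Fcrl1 ranked 869 there, Ighm 1084, Blnk 4848 and Cd22 5492. Most like Fcrl1 were Fam167b, Tspo, Cd72, Samhd1 and Papss1, with r of 0.99 for the first and 0.98 for the other 4. Cd22 ranked 1032 there, Ighm 1350, Cd79b 1388 and Blnk 4569. These are descriptions over libraries that share genotype, depth and sets, and they carry no test.

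Markers of other leukocytes were examined too, although the gate, Ly6C- and CD11b+, selects against Ly6C-high monocytes and plasmacytoid dendritic cells. T and NK cell genes summed to 694 to 1167 counts in WT and 237 to 435 in DKO libraries, nearly all from Il7r, the interleukin 7 receptor, which fell from 34.1 ± 8.43 CPM in WT to 12.6 ± 3.78 in DKO libraries (log2 fold change -1.44 ± 0.23 SE, edgeR adjusted p = 0.00369). Cd3g, Trac and Nkg7 were listed at 0. The 6 plasmacytoid dendritic cell genes summed to 2049 to 2725 counts in WT and 2192 to 2592 in DKO libraries, most of them from Tcf4, a factor of many cell types, with 1854 to 2570 counts. The 1 called was Cox6a2, which rose from 1.99 ± 0.439 CPM in WT to 10.1 ± 3.83 in DKO libraries (edgeR adjusted p = 0.000434). Monocyte genes summed to 93 to 227 counts in WT and 245 to 330 in DKO libraries. Of these, edgeR called Cd44 alone, rising from 1.28 ± 0.828 CPM in WT to 7.02 ± 1.88 in DKO libraries (edgeR adjusted p = 0.00314). Plac8 of the same list went the other way, with 8 to 48 counts in WT and 0 to 11 in DKO libraries. It was called lower by DESeq2 (adjusted p = 0.0426) but not by edgeR (adjusted p = 0.116). Among 4 genes of border-associated macrophages, Mrc1, the mannose receptor, was the highest, with 100 to 371 counts in WT and 88 to 532 in DKO libraries, and, like Cd79b, it was higher in numbers 4 and 5 than in numbers 1 to 3 of both genotypes. The chemokine gene Pf4 had 0 to 10 counts in WT and 49 to 146 in DKO libraries, and Cd163 and Lyve1 were listed at 0. The part of these genes in the levels of the 8 members was not tested. Over all genes tested, edgeR called 4.34% as higher and 1.85% as lower in DKO.

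Of the genes whose products the gate removed, Cd38, Ly6g and Ly6c2 had at most 4 counts in a library. H2-Ab1, a chain of MHCII, which B cells and activated microglia carry, rose from 17.1 ± 3.97 CPM in WT to 39.6 ± 7.66 in DKO libraries (SD, n = 5 each; edgeR adjusted p = 0.00248), while H2-Aa and H2-Eb1 had 6 to 33 and 6 to 18 counts. The gated-in genes Ptprc and Itgam were read in every library and did not pass in edgeR (adjusted p = 0.864 and 0.553, with 0 of 2 at an unadjusted p under 0.05 and 0 called by DESeq2 or limma voom).

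The promoters of Fcrl1 and Cd22 are shown because these were the members with the largest fold changes in mice that lack a pair of DNA-binding repressors. RefSeq sequence of GRCm38.p6 was held for 4 of the 8 members, Cd79a, Fcrl1, Cd22 and Blnk, as 250 bases before to 50 after the start. Capitals mark matches, on either strand, to GAGGAA, a purine-rich core such as Spi1 binds. Fcrl1 lies at chr3:87376137-87376436 on the plus strand and Cd22 at chr7:30878979-30879278 on the minus strand.
Fcrl1: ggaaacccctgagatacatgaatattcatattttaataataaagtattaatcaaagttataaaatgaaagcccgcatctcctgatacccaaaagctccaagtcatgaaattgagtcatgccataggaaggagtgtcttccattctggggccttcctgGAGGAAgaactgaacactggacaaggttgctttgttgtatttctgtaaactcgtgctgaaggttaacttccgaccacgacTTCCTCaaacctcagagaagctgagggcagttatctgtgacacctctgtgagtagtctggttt
Cd22: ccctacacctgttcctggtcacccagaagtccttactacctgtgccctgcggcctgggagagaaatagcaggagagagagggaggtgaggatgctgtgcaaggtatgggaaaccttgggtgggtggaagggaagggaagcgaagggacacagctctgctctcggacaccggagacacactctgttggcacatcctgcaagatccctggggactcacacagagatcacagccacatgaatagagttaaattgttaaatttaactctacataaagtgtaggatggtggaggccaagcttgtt

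GAGGAA occurs 2 times in the Fcrl1 window, 1 time in that of Cd79a and not in those of Cd22 and Blnk, and 28.3% of 32851 promoters of the same length hold it. CACGTG, the E-box that Bhlhe40 and Bhlhe41 are known to bind, is in none of the 4 windows, and 7.15% of all promoters hold it. ATGCAAAT, the octamer of immunoglobulin promoters, is in that of Blnk alone of the 4, on the reverse strand, and in 1.74% of all promoters. For Cd22, several transcripts of release M21 start upstream of this window. A match is a description of the sequence, and no match says only that these letters are not in the window.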

How the data were processed

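RNA of sorted microglia from 5 WT and 5 DKO libraries was analysed. Per the labels, the authors used cutadapt 2.6, FastQC 0.11.8 and STAR 2.5.3a with the mm10 build. For the step from alignments to gene tables, tool and annotation are not stated there or in the methods. In the deposited tables stand an estimated count per gene with no normalization, a TPM that the authors' tool scaled per library, and a transcript length and effective length.

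Estimated counts were rounded, filtered by filterByExpr (minimum count 10) and given TMM factors. The test was edgeR 4.0.16 (quasi-likelihood, Benjamini-Hochberg over 13916 genes, threshold 0.05) in R 4.3.3. The study used dream, which was not run here. Transcript lengths were compared by two-sided exact permutation tests. Correlations used log2 CPM with a prior count of 1 and 100000 permutations. For 52806 of 53697 genes the ID was found in GENCODE M21. On simulated data of 13598 genes for the same comparison, edgeR recovered 12.9% of genes changed 1.5-fold, 45.3% changed 2-fold and 93.4% changed 4-fold. Counting limits cover counting error only.

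The members, lists and tests were chosen with earlier results of these data known. Named genes were the 8 members, the targeted genes, up to 4 called genes of lowest p in each list (or its 2 tested genes with most reads, if none was called), and the 5 genes most like Ighm, Cd79b and Fcrl1. Further genes, such as Spi1 and those listed at 0 or at few counts, were named after their values were seen. The V, D and J segment genes were taken by their annotated gene type. Alternatives were other scaling factors, filters and tools (DESeq2 1.42.0, limma 3.58.1), TPM, a replicate block, the numbered sets, effective length and leaving out libraries. List counts cover every member of a list, and 1 member is not reported here.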

Additional observations from a re-analysis of the deposited data

How the results depend on the processing

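Of the members tested, 1 was called over all genes and libraries. The number was 2 without the count filter, with DESeq2 and with limma voom, each time with Cd22 beside Fcrl1, 3 when the fit had a term that parts numbers 1 to 3 from 4 and 5, and 0 with numbers 4 and 5 alone, where Fcrl1 kept a log2 fold change of 1.02 at an edgeR adjusted p of 0.0531. The set term brought Cd79b past the threshold at a log2 fold change of 0.37 and Cd22 at 1.63. Leaving out 1 library gave 1 or 2 calls, with 2 only without WT 3, and log2 fold changes of 0.24 to 0.44 for Ighm, 0.24 to 0.56 for Cd79b and 0.96 to 1.02 for Fcrl1. Ighm turned to -0.031 on log2(TPM + 1), a scale that moved the median of all genes to -0.26, and Blnk turned to 0.037 in numbers 4 and 5 alone. Upper-quartile factors moved that median to -0.11, and the share of calls that were higher fell from 70.1% to 54.6% with them and 53.7% with no factors.

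The numbers of the libraries did not pair them: same-numbered deviations correlated at -0.09, 0.05, -0.22, 0.19 and 0.10, and only number 4 correlated best with itself. With the replicate number as a block, 2 members were called, and 547 genes in all instead of 862.

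The length call on Ighm (1 member) was lost with effective length (0 members, 29.5 bases). Leaving out 1 DKO library gave 0 members, although the genotypes stayed apart, and leaving out 1 WT library gave 1 member. The difference was 10.1 to 14.0 bases over the libraries left out. The length difference turned to 8.79 bases for Fcrl1 with effective length, and for Cd22 it ran from -81.5 to 67.1 bases over the libraries left out. Of 9 correlations, 0 passed, by permutation over the 10 libraries and leaving out any 1, and 3 passed with genotype means removed, Cd79b with Fcrl1, Ighm with Blnk and Fcrl1 with Cd22, the last at -0.83. Other turns of sign were Ighm with Fcrl1 on log2(TPM + 1) (-0.11) and Cd79b with Blnk with genotype means removed (0.0075). Over the libraries left out, Cd79b with Blnk ran from -0.19 to 0.11 and Fcrl1 with Blnk from -0.42 to 0.027. The cause of these changes was not tested.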

Other observations

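The relatives of Fcrl1 and Cd22 in their own gene families gave further values. Among 6 Fc receptor-like genes, 3 were tested and Fcrl1 was the 1 called, beside 6.19% of all genes tested. Fcrls, the family member typical of microglia, averaged 5567 ± 711 CPM in WT libraries and 4399 ± 1360 in DKO libraries (SD, n = 5 each; edgeR adjusted p = 0.319), and Fcrl5, Fcrl6 and Fcrla, which lymphocytes use, had 13 counts or fewer in every library. Per kilobase, Fcrls was 23.1 to 31.6 times as high as Fcrl1 in WT and 7.57 to 13.3 times as high in DKO libraries.

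Of 8 Siglec genes, the family of sialic acid-binding receptors to which Cd22 belongs, all were tested. In edgeR's fit 0 were called higher and 3 lower in DKO, beside 4.34% and 1.85% of all genes tested. DESeq2 and limma voom each called 4 of the 8, with Cd22 as higher besides the 3 lower. Siglecg, a relative that B cells also use, fell from 5.45 ± 1.81 CPM in WT to 1.83 ± 0.472 in DKO libraries (SD, n = 5 each; log2 fold change -1.57, edgeR adjusted p = 0.0054), against a Cd22 log2 fold change of 1.59. Siglecf and Siglece fell by 0.56 and 0.33 on the log2 scale (edgeR adjusted p = 0.0244 and 0.0415), calls that were lost in 8 and 12 of 23 alternative settings. The list's median log2 fold change was -0.01, equal to that of all genes tested. Csf3r, the 1 tested gene of the neutrophil list, averaged 487 ± 145 CPM in WT libraries and 624 ± 109 in DKO libraries (edgeR adjusted p = 0.309, not called by DESeq2 or limma voom). P2ry12, a microglia marker, fell from 10766 ± 1335 CPM in WT to 7609 ± 974 in DKO libraries (edgeR adjusted p = 0.0301). It was the 1 of 12 such markers that was called, beside 6.19% of all genes tested, and its call was lost in 10 of 23 alternative settings.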
